A study of Mus musculus with 2 samples.

Results

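Of 778 CD8 T cells recovered from the spleens of anti-IL-2-treated transplant recipients, 474 carried RNA for Mki67 or Top2a, markers of dividing cells, and lacked RNA for Tcf7. They made up 60.9% of the CD8 cells (exact 95% interval 57.4 to 64.4%) and 35.4% of the 1340 anti-IL-2 cells kept. A cell was kept when at least 200 of the 2000 genes in the file were detected, and a gene was read as detected when its deposited value exceeded 0.7. A kept cell counted as CD8 when Cd8b1 was detected and Cd4 was not. The Tcf7-negative dividing cells were thus chosen by the measured values of Cd8b1, Cd4, Tcf7, Mki67 and Top2a, and these 5 genes are given as a description only. Intervals on shares are exact Clopper-Pearson intervals that cover counting error only.

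The recipients were WT BALB/C mice, lethally irradiated and injected with spleen and marrow cells of WT C57BL/6 donors, a model of allogeneic haematopoietic cell transplantation. They received an anti-IL-2 monoclonal antibody or tacrolimus, a calcineurin inhibitor, from day 0 to day 6, and spleen cells were collected on day 6. Each treatment had 1 library made with a droplet-based 5′ kit, so no difference has a replicate check, no test was run, and treatment and library cannot be told apart. The labels describe the cells as donor cells, and the genes measured here were not used to separate donor from recipient T cells. An untreated library was not analysed here, and the sources used here do not say how many recipients stand behind each library.

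TCF1, the protein made from Tcf7, is a transcription factor that maintains naive and memory T cells and the self-renewing pool of T cells under lasting stimulation. CD8 T cells that lose it during strong stimulation divide and differentiate into effector cells, which kill through perforin and granzymes. IL-2 acts through a receptor whose high-affinity alpha chain is made from Il2ra, signals through STAT5 and promotes effector growth. The division programme itself runs in order, with replication genes driven by E2F factors in S phase and mitotic genes switched on later through promoter elements called CHR and CCAAT.

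The cell label was checked against markers. Cd8a, the other chain of the CD8 co-receptor and not part of the rule, was detected in 94.3% of Tcf7-negative dividing cells and in 91.4% of the other 304 CD8 cells. Foxp3, the factor of regulatory CD4 cells, was found in 0.422% and 0.329% of these cells, and the B-cell gene Cd79a in 1.05% and 0.329%. Other B or plasma cell genes were more frequent, with Cd79b in 13.5% and 6.58% and Jchain in 3.38% and 0.658%, and their part in the results was not tested. At least 2 B-cell markers were found together in 13 Tcf7-negative dividing cells (2.74%) and in 1 other CD8 cell (0.329%). A list of 19 myeloid genes, 15 of them measured, did not separate lineages here, because Cst3 was detected in 92.2% of the Tcf7-negative dividing cells and in 81.9% of the other CD8 cells, and 2 or more of its genes in 54.4% and 53.6%. As a guide to free RNA, 43 kept cells without Cd8b1 or Cd4 but with 2 or more B-cell or erythroid markers were used. Whether these guide cells make a given transcript themselves was not tested, so their shares set no firm background. Their median depth was 10427 fitted UMIs and 382 genes, against 15219 UMIs and 436 genes in the Tcf7-negative dividing cells.

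The 304 other CD8 cells were 129 Tcf7-negative non-dividing, 105 Tcf7-positive dividing and 70 Tcf7-positive non-dividing cells. Mki67 or Top2a was detected in 78.6% of Tcf7-negative CD8 cells (474 of 603, interval 75.1 to 81.8%) and in 60.0% of Tcf7-positive ones (105 of 175, interval 52.3 to 67.3%). Depth differed along the division split. The median number of detected genes was 436 in Tcf7-negative dividing cells and 417 in Tcf7-positive dividing cells, against 287 in Tcf7-negative and 283.5 in Tcf7-positive non-dividing cells. Comparisons with non-dividing cells are therefore comparisons of deeper with shallower cells. Values after thinning cells to 5000 UMIs are given for some genes and lists only, and all other shares are not matched for depth.

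Some cells lay close to the limits of the rule. In 26 Tcf7-negative dividing cells the higher of the Mki67 and Top2a values was within 0.3 above the limit, and in 24 of the 129 Tcf7-negative non-dividing cells it was within 0.3 below it. Tcf7 lay within 0.3 below the limit in 17 Tcf7-negative dividing cells and within 0.3 above it in 16 of the 105 Tcf7-positive dividing cells. The anti-IL-2 values look batch-integrated, since 13.89% of them are below 0 while the tacrolimus values are whole UMI counts on a log scale. After the estimated integration shift was removed, 444 of the 474 cells (93.7%) still met the whole rule.

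Promoters of 5 division genes are shown because the dividing cells carried replication and mitotic transcripts side by side. Each line gives 250 bases before and 50 bases after the start of the gene, 5′ to 3′ on the gene's strand, from RefSeq on GRCm38.p6. Capitals mark a CHR, which was searched as TTTGAA, a box with the letters CCAAT or an E2F core on either strand, and adjoining capitals can be overlapping motifs. The E2F core was searched in 4 spellings, which are TTCCCGC with its close variant spelled TTCGCGC, followed by the spelling TTGCCGC together with its own variant TTGGCGC.
Cdk1, chr10:69352863-69353162, minus strand: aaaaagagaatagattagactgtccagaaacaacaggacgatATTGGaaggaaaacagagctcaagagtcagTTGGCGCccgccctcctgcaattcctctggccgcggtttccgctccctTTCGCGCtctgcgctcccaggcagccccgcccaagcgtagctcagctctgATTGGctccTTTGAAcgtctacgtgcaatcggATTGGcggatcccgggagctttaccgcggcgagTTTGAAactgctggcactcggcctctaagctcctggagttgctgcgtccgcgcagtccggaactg
Ccnb1, chr13:100786437-100786736, minus strand: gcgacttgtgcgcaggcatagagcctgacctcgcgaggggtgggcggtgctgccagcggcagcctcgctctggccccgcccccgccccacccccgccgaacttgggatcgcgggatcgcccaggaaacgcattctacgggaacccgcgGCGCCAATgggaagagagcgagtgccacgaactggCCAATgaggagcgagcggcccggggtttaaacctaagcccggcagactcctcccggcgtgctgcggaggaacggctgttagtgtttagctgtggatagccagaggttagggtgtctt
Plk1, chr7:122159185-122159484, plus strand: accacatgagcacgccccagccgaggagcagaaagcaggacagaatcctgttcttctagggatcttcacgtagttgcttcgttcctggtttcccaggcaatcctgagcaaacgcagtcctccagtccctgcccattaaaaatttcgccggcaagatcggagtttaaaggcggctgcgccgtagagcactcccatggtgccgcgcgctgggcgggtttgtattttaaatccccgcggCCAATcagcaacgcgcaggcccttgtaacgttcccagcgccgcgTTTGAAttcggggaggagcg
Cdc20, chr4:118437294-118437593, minus strand: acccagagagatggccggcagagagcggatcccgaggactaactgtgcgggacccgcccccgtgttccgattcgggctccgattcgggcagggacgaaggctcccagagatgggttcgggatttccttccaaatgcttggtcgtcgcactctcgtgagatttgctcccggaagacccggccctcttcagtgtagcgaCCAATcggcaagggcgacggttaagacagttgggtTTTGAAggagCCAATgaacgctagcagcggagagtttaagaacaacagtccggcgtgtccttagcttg
Rrm2, chr12:24708004-24708303, plus strand: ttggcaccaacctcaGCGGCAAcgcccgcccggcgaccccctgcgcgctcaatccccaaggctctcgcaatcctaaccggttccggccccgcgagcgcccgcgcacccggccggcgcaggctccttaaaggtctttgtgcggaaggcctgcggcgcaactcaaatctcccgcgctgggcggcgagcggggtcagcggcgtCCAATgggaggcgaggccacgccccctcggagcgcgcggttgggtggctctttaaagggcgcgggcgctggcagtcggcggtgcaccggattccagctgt

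The windows of Cdk1, Plk1 and Cdc20, which encode the mitotic kinase, the polo kinase and an activator of the anaphase-promoting complex, held both a CHR and a CCAAT box. The window of Ccnb1, which encodes the mitotic partner of the CDK1 kinase, held 2 CCAAT boxes, an E2F core that overlaps the first of them and 0 CHR letters. Rrm2, a subunit of the enzyme that makes deoxyribonucleotides, had an E2F core and a CCAAT box. Of 63 measured genes of G2 and mitosis, 51 matched the promoter table, with 53 promoters. CHR letters were in 73.6% of these 53 promoters, against 17.9% of all 32851 promoters. CHR and CCAAT letters occurred together in 64.2% of the mitotic promoters and in 6.95% of all promoters. E2F cores were in 62.5% of 32 promoters of 27 replication genes (34 measured), in 26.4% of the mitotic promoters and in 9.57% of all. These are matches of letters and not measured binding.

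Division genes outside the rule were also frequent in the Tcf7-negative dividing cells. Since Mki67 and Top2a chose the cells, the shares of such genes describe the choice. Ccna2, the cyclin of S phase and G2 (chromosome 3, bases 36564865 to 36572150 of mm10), was detected in 85.0% of Tcf7-negative dividing cells (interval 81.5 to 88.1%), 7.75% of Tcf7-negative non-dividing cells, 74.3% of Tcf7-positive dividing cells (64.8 to 82.3%) and 4.29% of Tcf7-positive non-dividing cells. Cdk1 was detected in 70.9% of Tcf7-negative dividing cells, 4 of 129 Tcf7-negative non-dividing cells, 61.0% of Tcf7-positive dividing cells and 0 of 70 Tcf7-positive non-dividing cells. Both dividing groups thus stood far above both non-dividing groups for these genes. For 70 cells a count of 0 leaves room for 4.29%. Ccna2 and Cdk1 were found together in 67.7% of Tcf7-negative dividing cells and in 2.33% of Tcf7-negative non-dividing cells.

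Against all other CD8 cells, a gene was called when it was detected in at least 5% of either group and its shares differed at least 1.5-fold. The counts of a list given here are over its measured genes that reached 5%. By this rule 36% of 924 genes were higher and 6.28% lower in Tcf7-negative dividing cells, which were also the deeper ones; when the nearest cells by number of detected genes were paired, 214 were higher and 90 lower, but the paired cells still had medians of 376 and 307.5 genes. Of 34 replication genes, 31 were higher and 0 lower, with a median log2 ratio of 1.26 against 0.34 over all genes. Of 63 genes of G2 and mitosis, 50 were higher and 0 lower (median 1.57), and 7 of the rest were too frequent in the other cells for such a rise to be possible. Of 44 replication-dependent histone genes, which are transcribed in S phase, 42 were higher and 0 lower (median 1.31). Since Mki67 and Top2a chose the cells, these counts describe the choice and are not read further.

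Replication genes among them included Rrm2, detected in 82.5% of Tcf7-negative dividing cells and 30.6% of other CD8 cells, and Asf1b, a histone chaperone, in 78.7% and 23.7%. Mcm5, a subunit of the replicative helicase, was detected in 80.2% and 38.8%. Mitotic genes included Plk1, in 62.0% and 20.4%, and Aurkb, the kinase of the chromosomal passenger complex, in 61.2% and 19.7%. After thinning to 5000 UMIs the median log2 ratios of the lists were 1.23 for replication, 1.55 for G2 and mitosis and 1.19 for histones. Thinning evens out fitted UMIs only, and with a minimum of 300 detected genes per cell the medians were 0.67, 0.87 and 0.77. The free-RNA guide cells carried the same genes (Ccna2 in 41.9% of 43 cells), and their division state was not tested, so they set no background for this programme.

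Cells differed in how many genes of the programme were detected. These counts were not matched for depth, and no cell was assigned to a phase. Of the 34 replication genes a Tcf7-negative dividing cell carried a median of 23 (range 1 to 34), and of the 63 mitotic genes a median of 40 (range 5 to 62). Tcf7-negative non-dividing cells carried medians of 5 and 9, and Tcf7-positive dividing cells 21 and 33. At least 50% of both lists was detected in 264 Tcf7-negative dividing cells (55.7%), of the replication list only in 73 (15.4%), of the mitotic list only in 56 (11.8%) and of neither in 81 (17.1%). In the plot of both counts per cell the Tcf7-negative dividing cells are spread over the whole range.

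**Figure D1:**
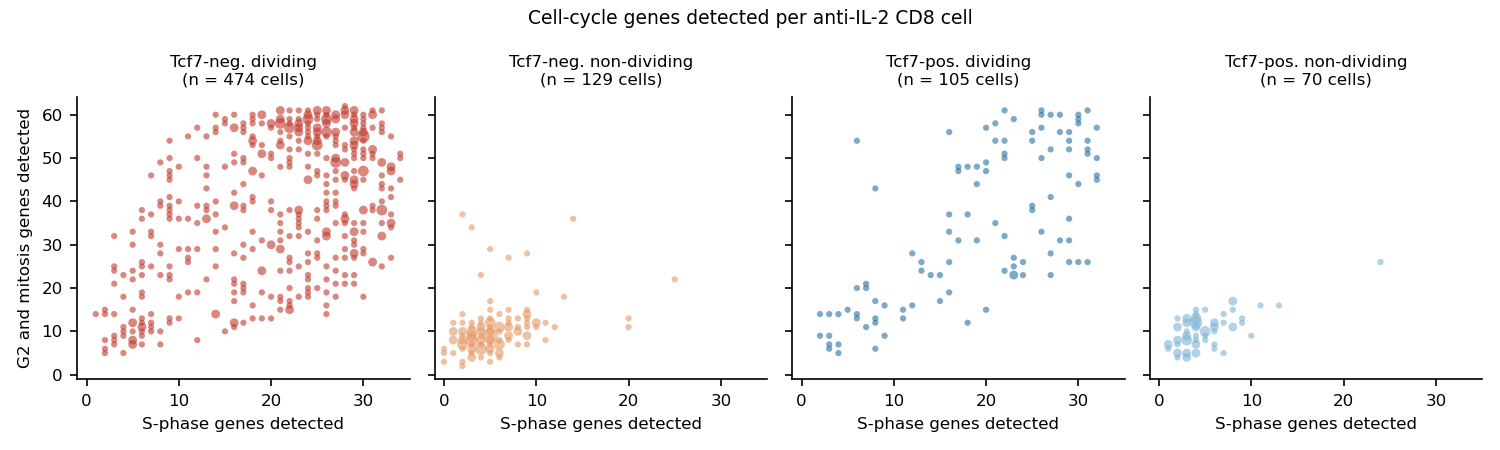
Number of S-phase genes (x axis, of 34) and of G2 and mitosis genes (y axis, of 63) detected in each anti-IL-2 CD8 cell, by group; the area of a point grows with the number of cells at that pair of counts. Tcf7-negative dividing cells spread from few to nearly all genes of both lists with medians of 23 and 40, and non-dividing cells gather at the lower left.

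The programme was not the only thing that varied within the Tcf7-negative dividing cells. Il7r was detected in 17.8% of cells with at least 50% of both lists, in 28.8% with the replication list only, in 21.4% with the mitotic list only and in 55.6% with neither. Slfn1, a gene of the interferon-induced Schlafen family, was detected in 25.4%, 28.8%, 35.7% and 53.1% of these cells. Havcr2 ran the other way, with 70.5%, 68.5%, 51.8% and 42.0%. Cells that carried few division genes thus lay closest to the Tcf7-negative non-dividing cells, where Il7r was found in 87.6%, Slfn1 in 55.0% and Havcr2 in 43.4%. Depth was not matched between these classes, and its part was not tested.

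Within the Tcf7-negative dividing cells, both Mki67 and Top2a were detected in 362 cells (76.4%), Mki67 alone in 66 and Top2a alone in 46. Between cells with both markers and cells with 1, the largest differences were in Fbxo5, an inhibitor of the anaphase-promoting complex, with 76.8% and 15.2%, and in Cdk1, with 85.4% and 24.1%. The differences the other way were largest for Ctrb1, with 14.6% and 58.9%, and Il7r, with 20.2% and 46.4%.

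Among the 4 CD8 groups Il7r was rarest in Tcf7-negative dividing cells. It encodes the receptor chain for the survival cytokine IL-7 (chromosome 15, bases 9505788 to 9530176). It was detected in 26.4% of Tcf7-negative dividing cells (interval 22.5 to 30.6%), 87.6% of Tcf7-negative non-dividing cells (80.6 to 92.7%), 42.9% of Tcf7-positive dividing cells (33.2 to 52.9%) and 71.4% of Tcf7-positive non-dividing cells. Both dividing groups lay below both non-dividing groups, and absence of Tcf7 went with a lower share among dividing cells and a higher share among non-dividing cells. With the integration shift removed the 4 shares were 21.1%, 83.0%, 39.0% and 62.9%, and after thinning 10.4%, 47.1%, 21.4% and 47.7%. Thinned to the same number of fitted UMIs, the non-dividing groups thus had close shares. The free-RNA guide cells had Il7r in 2.33%.

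Klrg1, a receptor of short-lived effector cells, was found in 10.8% of Tcf7-negative dividing cells and 19.4% of Tcf7-negative non-dividing cells (log2 ratio -0.86, and -0.47 with the shift removed, which misses the rule). Among the Tcf7-negative dividing cells 66.0% had neither Klrg1 nor Il7r, 23.2% had Il7r alone, 7.59% had Klrg1 alone and 3.16% had both. In the Tcf7-negative non-dividing cells the shares were 11.6%, 69.0%, 0.775% and 18.6%. Cells with Klrg1 thus mostly lacked Il7r in the dividing group and mostly carried it in the non-dividing group. The same held for all cells of each group, so these shares show no relation particular to Klrg1. A relation between Klrg1 and Il7r was not tested. Klrg1 was in 0 of the 43 guide cells, so up to 6.98% cannot be told from 0.

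Of 14 genes typical of naive, memory or stem-like cells, with Tcf7 left out, 11 were lower in Tcf7-negative dividing cells than in other CD8 cells and 0 higher (median log2 ratio -1.66). Against Tcf7-positive dividing cells, which had nearly the same depth, 11 of 13 were lower and 0 higher (median -2.16). Over all 946 genes of that comparison 8.67% were higher and 12.4% lower, with a median of 0.01. Against Tcf7-negative non-dividing cells 7 of 11 were lower and 1, Myb, was higher. There 50% of 908 genes were higher and 3.96% lower, or 192 and 119 genes after pairing by detected genes, which left medians of 311 and 287. Genes that go with Tcf7 differ by the choice of cells as far as they track Tcf7. The count against Tcf7-positive dividing cells thus describes what the split on Tcf7 separated, as does in part the count against other CD8 cells. Tcf7-negative non-dividing cells have the same Tcf7 status as the dividing ones. They differ in the division genes that chose the cells and in depth, and the source of that count was not tested.

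Id3, an inhibitor of E proteins kept by memory precursors (chromosome 4, bases 136143497 to 136145755), was detected in 10.1% of Tcf7-negative dividing cells (7.56 to 13.2%) and in 56.2% of Tcf7-positive dividing cells (46.2 to 65.9%). Ccr7, the chemokine receptor for the T zone, was detected in 3.80% and 28.6%. Cxcr5, the receptor that leads cells to B-cell follicles, was detected in 1.69% and 19.0%. Intervals of the shares did not overlap for any of these genes, but the intervals cover counting error only and are no test between groups. How often intervals failed to overlap over all genes is not given here. Id3, Ccr7 and Cxcr5 belong to the naive, memory and stem-like list. As far as these genes track Tcf7, their differences follow from the choice of cells. In Tcf7-negative non-dividing cells Id3 was detected in 17.8%, Ccr7 in 6.98% and Cxcr5 in 5.43%. The guide cells had Id3 in 2.33%, Ccr7 in 2.33% and Cxcr5 in 0 of 43, so the Ccr7 share of the Tcf7-negative dividing cells was close to that of the guide cells. The neuronal vesicle gene Nsg2, detected in 3.59% and 37.1% of the dividing groups, and Rgs10, a regulator of G-protein signalling, in 21.9% and 67.6%, were among the 12 largest differences downwards. Rgs10 was also in 37.2% of the guide cells.

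**Figure D2:**
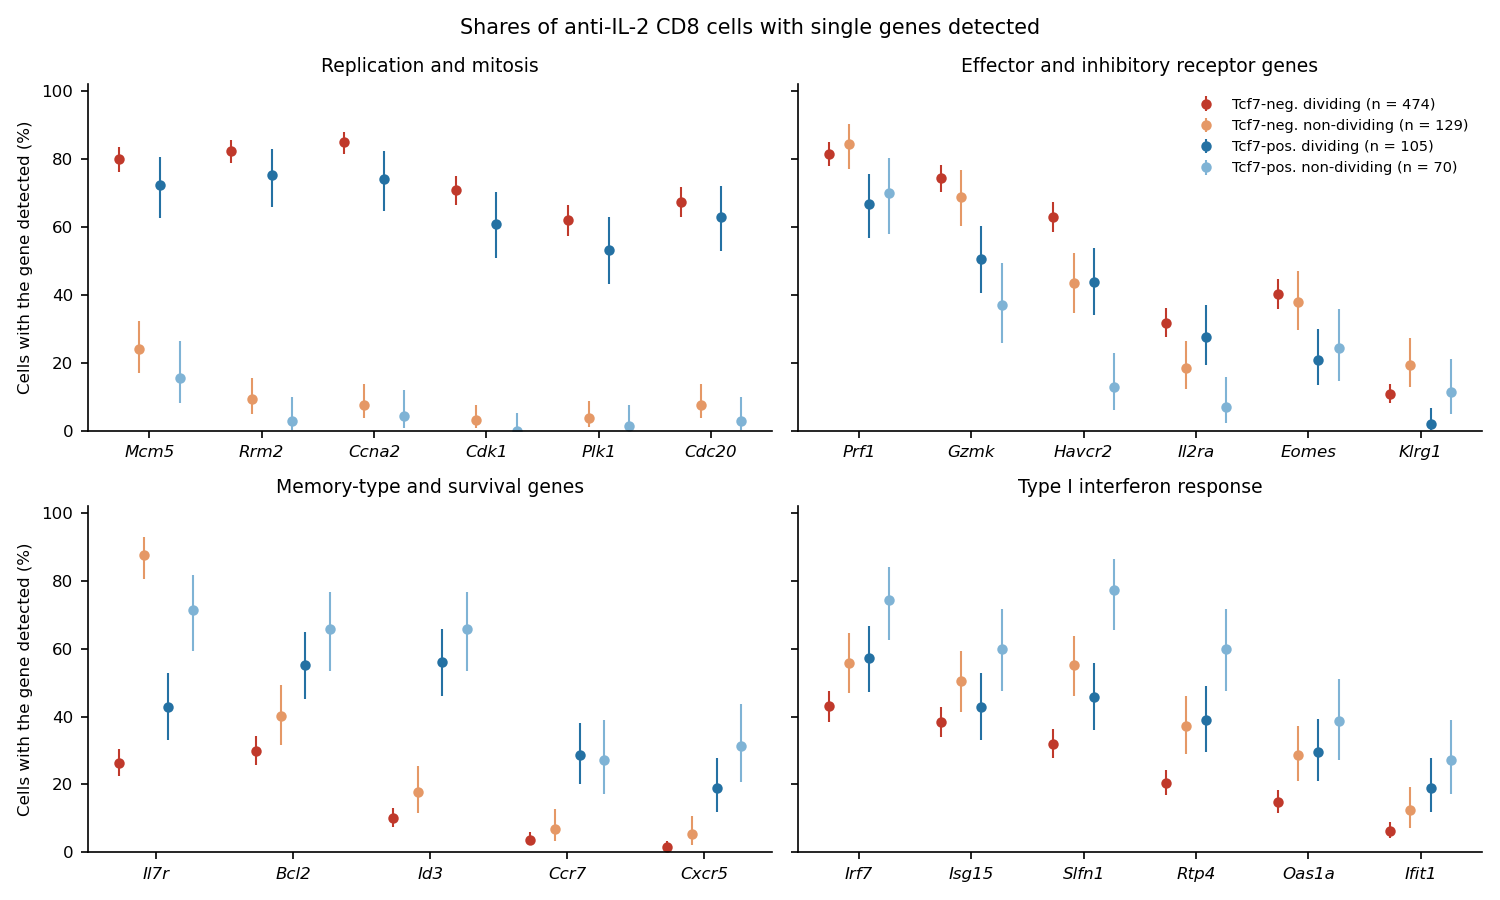
Share of anti-IL-2 CD8 cells with each gene detected (y axis, percent; x axis, gene), with Tcf7-negative dividing cells leftmost in each cluster of points; bars are exact 95% intervals that cover counting error only. Division genes split the groups by division, Id3, Ccr7 and Cxcr5 split them mainly by Tcf7, and Il7r and Rtp4 are lowest in the Tcf7-negative dividing cells.

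The survival gene Bcl2 was detected in 29.96% of Tcf7-negative dividing cells (interval 25.9 to 34.3%), 40.3% of Tcf7-negative non-dividing cells (31.8 to 49.3%), 55.2% of Tcf7-positive dividing cells (45.2 to 65.0%) and 65.7% of Tcf7-positive non-dividing cells. Tnfsf8, the ligand of CD30, was found in 6.33%, 11.6%, 35.2% and 45.7%. Crtam, an adhesion receptor of activated cytotoxic cells, was found in 20.5%, 37.2%, 53.3% and 41.4%. Tcf7-negative dividing cells had the lowest share for all 3, although their Bcl2 interval overlapped that of Tcf7-negative non-dividing cells. All 3 were named as being among the 12 largest differences downwards against other CD8 cells. Their low shares thus follow in part from how they were picked. Of 10 survival and apoptosis genes (12 measured) against Tcf7-positive dividing cells, 2 were lower (Bcl2 and Trp53inp1) and 1 was higher, the cell-cycle inhibitor Cdkn1a, in 8.65% and 1.90%. In that comparison 12.4% of all 946 genes were lower and 8.67% higher.

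Gzmb, Gzma and Nkg7 were detected in nearly all CD8 cells, while Prf1 and Gzmk differed between groups. Gzmb, encoding granzyme B, was detected in 99.8% of Tcf7-negative dividing cells and 99.0% of other CD8 cells, Gzma in 99.6% and 97.4%, and Nkg7, a granule protein, in 99.0% of Tcf7-negative dividing cells. Of the guide cells 9.30% had Gzmb, 4.65% had Gzma and 0 of 43 had Nkg7. Prf1, encoding perforin, was detected in 81.6% of Tcf7-negative dividing cells, 84.5% of Tcf7-negative non-dividing cells, 66.7% of Tcf7-positive dividing cells and 70.0% of Tcf7-positive non-dividing cells. Of 21 granzyme, perforin and cytotoxic genes (27 measured) against other CD8 cells, 2 were higher (Gzmc and Serpinb9b), 1 was lower (Xcl1), and 10 were already too frequent for a 1.5-fold rise. Among all 924 genes of that comparison 36% were higher and 6.28% lower. Shares near 100% cannot show how much RNA a cell holds. After thinning, Gzmb was detected in 98.0% of Tcf7-negative dividing cells and 85.4% of Tcf7-positive dividing cells, and Gzma in 85.6% and 71.4%.

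Gzmk, a granzyme often found in memory-type and exhausted CD8 cells (chromosome 13, bases 113171608 to 113225908), was detected in 74.5% of Tcf7-negative dividing cells (interval 70.3 to 78.3%) and in 50.5% of Tcf7-positive dividing cells (40.5 to 60.4%). The fold of 1.5 was missed (log2 ratio 0.56) and was passed with the shift removed (0.64, from shares of 71.5% and 45.7% in the same cells). Gzma, Gzmb, Gzmk and Prf1 were found together in 62.4% of Tcf7-negative dividing cells, 61.2% of Tcf7-negative non-dividing cells, 34.3% of Tcf7-positive dividing cells and 27.1% of Tcf7-positive non-dividing cells. Full co-detection of the 4 thus went with absence of Tcf7, and its share differed less along division. Dividing cells were deeper and co-detection was not matched for depth, so its relation to division is left undecided. Eomes, a T-box factor of effector and memory cells, was also more frequent without Tcf7, with 40.3%, 38.0%, 21.0% and 24.3%.

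Other genes were higher in Tcf7-negative than in Tcf7-positive dividing cells. Itgax, an integrin chain that activated CD8 cells can carry, was detected in 38.8% and 15.2%, and Itgam in 11.6% and 2.86%. Entpd1, the ectoenzyme CD39, was detected in 14.6% and 2.86%, and the laminin gene Lamc1 in 30.6% and 8.57%. Fcer1g, a signalling adaptor that NK and myeloid cells use, was detected in 14.3% and 2.86%. Itgax was higher still in Tcf7-negative non-dividing cells, at 61.2%. Of the guide cells 46.5% had Entpd1, 16.3% Lamc1 and 11.6% Fcer1g. Bhlhe40, a transcription factor of activated T cells, was detected in 65.0% and 40.0%, but its log2 ratio of 0.70 dropped to 0.19 when values above 0.5 were read as detected. The cytokine gene Xcl1 went the other way, in 10.5% and 26.7%. For division itself 0 of 34 replication genes were called, and 1 of 63 mitotic genes, Mxd3, was higher (46.6% and 30.5%). Of these lists 13 and 19 genes were too frequent in Tcf7-positive dividing cells for a 1.5-fold rise. Over all 946 genes 8.67% were higher and 12.4% lower. Both groups were chosen by Mki67 or Top2a, so likeness in division genes describes the choice.

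Inhibitory receptors were detected in most Tcf7-negative dividing cells, and Havcr2 was the receptor with the widest spread between groups. Pdcd1, encoding PD-1, was detected in 89.0% of them and 87.2% of other CD8 cells, Lag3 in 88.6% and 83.6%, and Ctla4 in 65.0% and 64.5%. Havcr2, encoding TIM-3 (chromosome 11, bases 46454935 to 46481255), was detected in 63.1% of Tcf7-negative dividing cells (interval 58.6 to 67.4%), 43.4% of Tcf7-negative non-dividing cells (34.7 to 52.4%), 43.8% of Tcf7-positive dividing cells (34.1 to 53.8%) and 12.9% of Tcf7-positive non-dividing cells. Division and absence of Tcf7 each went with a higher Havcr2 share, and the cells with both had the highest. These shares were not matched for depth. Against either single group the ratio missed the 1.5-fold rule, with log2 values of 0.54 against Tcf7-negative non-dividing and 0.52 against Tcf7-positive dividing cells. The guide cells had Pdcd1 and Havcr2 in 0 of 43.

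All 4 receptors were found together in 38.6% of Tcf7-negative dividing cells (interval 34.2 to 43.2%), 25.6% of Tcf7-negative non-dividing cells (18.3 to 34.0%), 28.6% of Tcf7-positive dividing cells (20.2 to 38.2%) and 7.14% of Tcf7-positive non-dividing cells. None of the 4 was found in 12 Tcf7-negative dividing cells (2.53%), and co-detection was not matched for depth. Tox, a factor needed by exhausted T cells (chromosome 4, bases 6686353 to 6991557), was detected in 54.6%, 41.9%, 63.8% and 50.0% of these groups. Tox thus did not follow Havcr2. Of 18 genes of inhibitory receptors and chronic stimulation (19 measured) against other CD8 cells, 3 were higher (Havcr2, Rgs16 and Irf4) and 0 lower, with a median of 0.06. Over all 924 genes 36% were higher and 6.28% lower, with a median of 0.34. After thinning 2 of the 18 genes were higher and 3 lower.

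IL-2 itself was at the edge of detection. Il2 was found in 0 of 474 Tcf7-negative dividing cells, so a share of up to 0.633% cannot be told from 0, and in 1 of 129 Tcf7-negative non-dividing cells. Il2ra, the high-affinity chain that STAT5 induces, was detected in 31.9% of Tcf7-negative dividing cells (interval 27.7 to 36.3%), 18.6% of Tcf7-negative non-dividing cells, 27.6% of Tcf7-positive dividing cells and 7.14% of Tcf7-positive non-dividing cells. Its shares were 14.9%, 5.89%, 8.96% and 1.29% after thinning, in the same order. Of 11 genes of the IL-2 receptor and STAT5 (14 measured) against other CD8 cells, 2 were higher (Il2ra and Bhlhe40) and 1 lower (Bcl2), with a median of -0.05. Among all 924 genes 36% were higher and 6.28% lower, with a median of 0.34. Cish, a STAT5-induced inhibitor, was found in 2.95% of Tcf7-negative dividing cells and 5.43% of Tcf7-negative non-dividing cells.

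Interferon-induced genes were also lower in Tcf7-negative dividing cells. Of 21 genes of the type I interferon response (25 measured), 13 were lower than in other CD8 cells and 0 higher, with a median of -0.83 (-0.88 after thinning). Of 19 genes, 12 were lower than in Tcf7-positive dividing cells (median -0.88) and 8 lower than in Tcf7-negative non-dividing cells (median -0.37), and 0 were higher in either comparison. When only cells with both Mki67 and Top2a were counted as dividing, the median against other CD8 cells was -0.52. Over all genes 6.28% were lower than in other CD8 cells, 12.4% than in Tcf7-positive dividing cells and 3.96% than in Tcf7-negative non-dividing cells.

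Rtp4, a receptor-transport protein induced by interferon (chromosome 16, bases 23520291 to 23614222), was detected in 20.5% of Tcf7-negative dividing cells (interval 16.9 to 24.4%), 37.2% of Tcf7-negative non-dividing cells (28.9 to 46.2%), 39.0% of Tcf7-positive dividing cells (29.7 to 49.1%) and 60.0% of Tcf7-positive non-dividing cells. Oas1a, which senses double-stranded RNA, was detected in 14.8%, 28.7%, 29.5% and 38.6%, and Ifit1, a binder of viral RNA, in 6.33%, 12.4%, 19.0% and 27.1%. Each gene was lowest in the Tcf7-negative dividing cells, and highest in Tcf7-positive cells that did not divide. Rtp4, Oas1a and Ifit1 were picked from the genes called lower than in other CD8 cells, so their low shares follow in part from that choice. Irf7, the factor that amplifies the response, followed with 43.0%, 55.8%, 57.1% and 74.3% but missed the 1.5-fold rule in the comparison with other CD8 cells (log2 ratio -0.49). Isg15 missed it too, with 38.4% of Tcf7-negative dividing cells and 50.0% of other CD8 cells. The guide cells held more of these transcripts (Rtp4 in 30.2%, Oas1a in 30.2%, Isg15 in 72.1%), and the part of free RNA in these shares was not tested.

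Genes of the interferon-gamma response showed smaller differences. Of 13 such genes (21 measured) against other CD8 cells, 2 were higher (Irf8 and Cd74) and 3 lower (Gbp5, Tgtp1 and Tgtp2), with a median of -0.16. In that comparison 36% of all 924 genes were higher and 6.28% lower, with a median of 0.34. Ifng itself was detected in 34.4% of Tcf7-negative dividing cells, 30.2% of Tcf7-negative non-dividing cells, 23.8% of Tcf7-positive dividing cells and 4.29% of Tcf7-positive non-dividing cells. Cd74, which antigen-presenting cells make in bulk, was found in 10.3% of Tcf7-negative dividing cells, 5.92% of other CD8 cells and 83.7% of the guide cells, and its part as free RNA was not tested.

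Growth genes did not stand out from the other genes along division. Of 16 genes of growth, MYC and amino acid supply (18 measured), 9 were higher than in Tcf7-negative non-dividing cells and 0 lower (median 0.79 against 0.58 over all genes), where 50% of all genes were higher. Slc7a5, a chain of the large neutral amino acid transporter, was detected in 26.2% and 9.30%, and in 39.5% of the guide cells. Against Tcf7-positive dividing cells 1 of 16 was higher (Slc7a5, against 17.1%) and 2 were lower, Atf5 and Myc. There 8.67% of all genes were higher and 12.4% lower. Myc, a transcription factor that drives growth, was detected in 26.2% of Tcf7-negative dividing cells, 43.8% of Tcf7-positive dividing cells and 15.5% of Tcf7-negative non-dividing cells. Of 7 glycolytic genes, 6 were too frequent in every group for a call, as with Ldha in 99.2% of Tcf7-negative dividing cells.

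**Figure D3:**
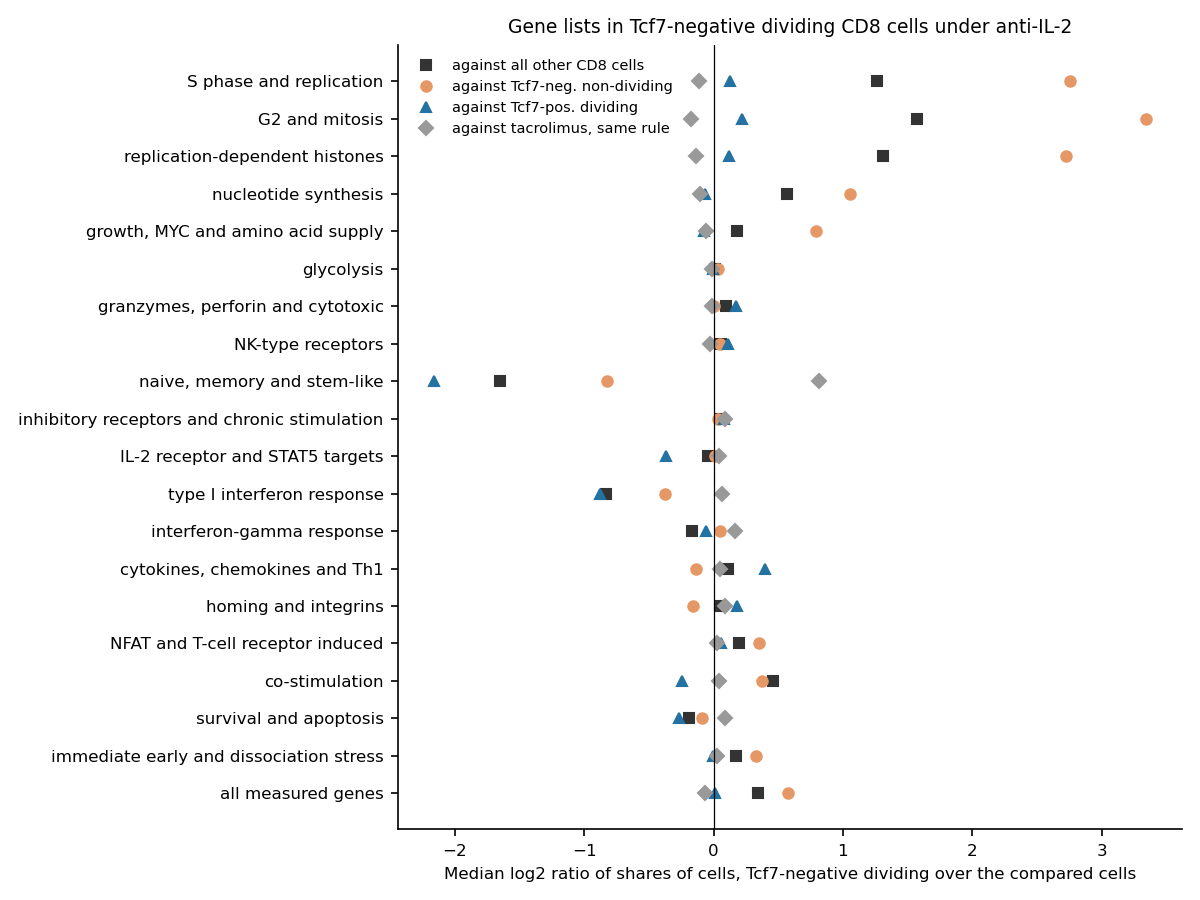
Median log2 ratio of shares of cells over the genes of each list (x axis), for Tcf7-negative dividing CD8 cells under anti-IL-2 over 4 compared groups; 0 means equal shares and the last line gives all measured genes. Division lists lie far to the right against Tcf7-negative non-dividing cells (3.35 for G2 and mitosis), and the naive, memory and stem-like list and the type I interferon list lie to the left within the library.

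Against other CD8 cells, the largest difference downwards in percentage points was not in a T-cell gene. Ctrb1, encoding a pancreatic digestive enzyme, was detected in 25.1% of Tcf7-negative dividing cells and 70.7% of other CD8 cells as deposited, but in 6.54% and 42.8% with the integration shift removed. The guide cells had it in 37.2%. At least 2 of 26 measured acinar genes were found in 15 Tcf7-negative dividing cells (3.16%) and 24 other CD8 cells (7.89%). The part of free RNA in these shares was not tested.

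The same rule applied to the tacrolimus library chose 822 of 1001 CD8 cells, or 82.1% (interval 79.6 to 84.4%), against 60.9% under anti-IL-2. Cells with Tcf7 were 22.5% of the CD8 cells under anti-IL-2 (175 of 778, interval 19.6 to 25.6%) and 30 of 1001 under tacrolimus (2.03 to 4.25%). Since the anti-IL-2 values appear integrated and the tacrolimus values do not, differences between the 2 sets of cells are given as deposited. For some genes and counts only, they are also given with the shift removed, most with tacrolimus cells thinned to matching depth. The medians of detected genes were 436 and 442.5. Of 922 genes 4.99% were higher and 5.42% lower in the anti-IL-2 cells. The part of the integration in these counts was not tested. Comparisons within the library are between groups split on genes of the rule, so their counts are no measure for these. The balance of higher and lower genes depended on the setting: 72 were higher and 41 lower with the shift removed and depth matched, 55 and 34 when values above 0.5 were read as detected, and 24 and 86 when values above 1 were.

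In the division programme 0 replication and 0 mitotic genes were called either way, but 18 of 34 and 30 of 63 were too frequent under tacrolimus for a 1.5-fold rise to be possible. Tcf7-negative dividing cells carried a median of 40 of the 63 mitotic genes under anti-IL-2 and 48 under tacrolimus. Plk1 was detected in 62.0% and 74.6%, and Ccnb1 in 59.3% and 72.6%. The median log2 ratio of the mitotic list was -0.18 against -0.07 over all genes, and -0.14 against -0.02 after depth matching.

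Tox, Tox2, Bcl2 and Id3 were more frequent under anti-IL-2. Under anti-IL-2 Tox was detected in 54.6% of cells (50.0 to 59.2%), against 35.04% under tacrolimus (31.8 to 38.4%), and its relative Tox2 in 14.8% and 2.55%. Bcl2 was detected in 29.96% and 17.0%, and Id3 in 10.1% and 2.92%. Of 7 genes of the naive, memory and stem-like list (14 measured) 4 were higher, with Id3, Il6st and Xcl1 among them, and 0 lower. Among all 922 genes 4.99% were higher and 5.42% lower. With the shift removed and depth matched, the log2 ratios were 0.69 for Tox, 2.89 for Tox2, 1.06 for Bcl2 and 1.99 for Id3. Nr4a2, an orphan receptor induced through the T-cell receptor, was detected in 42.4% and 27.1%, and Ncf1, a subunit of the phagocyte oxidase, in 19.6% and 6.45%.

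Of 23 granzyme, perforin and cytotoxic genes (27 measured), 4 were lower under anti-IL-2 (Gzmc, Gzmm, Klrg1 and Serpinb9b), 1 was higher (Xcl1) and 18 were neither, with a median of -0.01. Over all genes 4.99% were higher and 5.42% lower. With the shift removed and depth matched, 2 of the 23 were higher and 4 lower. The shares of single genes that follow are as deposited only. Klrg1 was found in 10.8% under anti-IL-2, against 22.5% under tacrolimus (19.7 to 25.5%), with a log2 ratio of -1.06. Gzmm, a granzyme of cytotoxic lymphocytes, was detected in 3.59% and 14.4%, and Gzmc in 10.5% and 16.9%. Itga1, the collagen-binding integrin chain of tissue-resident cells, was detected in 7.17% and 20.4%, and Il12rb2, the signalling chain of the IL-12 receptor, in 20.9% and 36.1%. The STAT5-induced inhibitors Cish and Socs2 were detected in 2.95% and 6.81%, and in 0.844% and 6.69%. Il2ra, in 31.9% and 44.4%, missed the 1.5-fold rule. Of 13 genes of the IL-2 receptor and STAT5 (14 measured), 1 was higher (Bcl2) and 2 lower (Cish and Socs2), with a median of 0.04.

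All 4 inhibitory receptors were found together in 38.6% of anti-IL-2 cells and 41.4% of tacrolimus cells, and Gzma, Gzmb, Gzmk and Prf1 in 62.4% and 63.9%. The intervals of both pairs overlapped. Of 15 type I interferon genes (25 measured) 3 were higher under anti-IL-2 (Ifit1, Usp18 and Oas1a) and 0 lower, beside 4.99% and 5.42% of all 922 genes. Pancreatic transcripts also separated the libraries. Reg3b was found in 0.633% and 17.0%, and Prss2 in 2.95% and 16.5%, and their part in other differences between the libraries was not tested. Anxa1, an anti-inflammatory annexin, was in 91.1% and 57.8%, but its log2 ratio of 0.66 was 0.51 with the shift removed, which misses the rule.

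**Figure D4:**
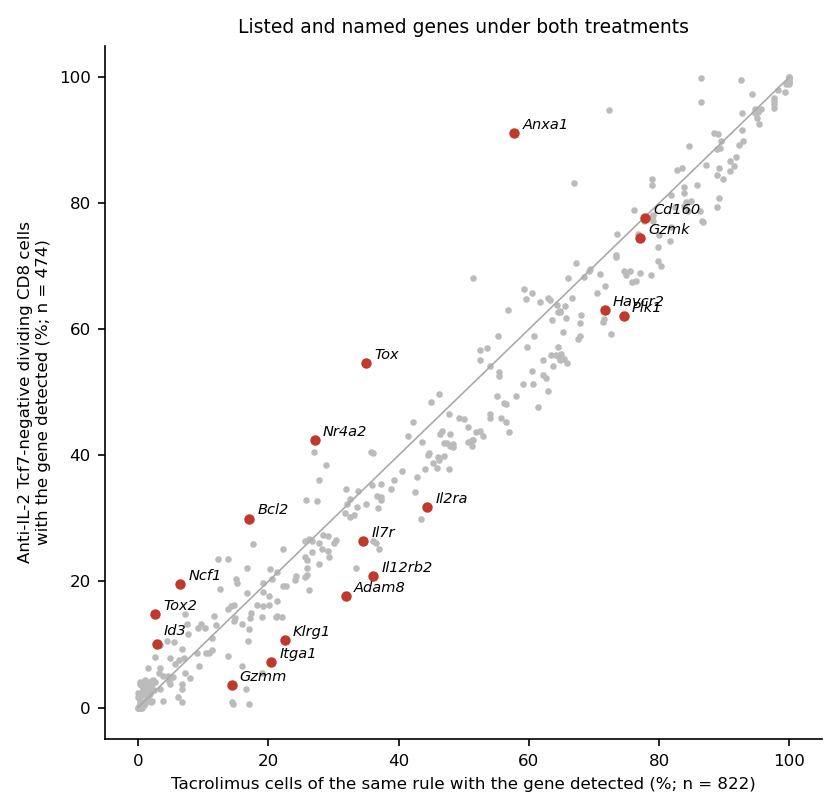
Share of Tcf7-negative dividing CD8 cells with each gene detected under anti-IL-2 (y axis, percent, n = 474) and under tacrolimus (x axis, percent, n = 822), as deposited, for the listed and named genes apart from those of the rule; the line marks equal shares. Tox, Tox2, Bcl2 and Nr4a2 lie above the line, and Klrg1, Gzmm, Itga1 and Il12rb2 lie below it.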

How the data were processed

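Single-cell RNA-seq of spleen cells gave 1 library per treatment (1551 anti-IL-2 and 1688 tacrolimus cells). Cell Ranger 3.1.0, Seurat and mm10 are recorded in the submitters' processing notes; no filter on reads or cells is given there. The authors deposited natural log expression of 2000 genes, each cell scaled to one total. The tacrolimus values are whole UMIs at a scale of 50000 per cell (100% within 0.001). Of the anti-IL-2 values 13.89% are below 0, as after batch integration, which no label or header records; their differences are treated as integrated differences. The tacrolimus file repeats 308 anti-IL-2 cells, which were used once. The libraries share 4 cell barcodes. The files hold 0 mitochondrial genes.

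Members were found with Python 3.11.15 by the rule in the report, and members and lists were chosen with earlier results of these data known. Cells were not treated as replicates. Ratios of shares used 0.5 added to each count and 1 to each number of cells. As alternatives, a UMI total was fitted per anti-IL-2 cell and the integration shift shared by 30 neighbours was removed, and shares were thinned to 5000 UMIs, which left out 36 members and 14 other CD8 cells. Fitted totals were within 1.25-fold of directly read ones in 86.0% of 171 cells. The shift removal was tested on simulated data (tacrolimus cells integrated with Seurat 5.3.0 in R 4.3.3), with settings chosen on these same cells. There, 200 genes were changed in the simulated library. For these genes the difference in share between dividing and non-dividing cells was read less exactly than for unchanged genes. The 95th percentile of its error was 26.22 points without the removal and 22.15 points with it. For unchanged genes the values were 4.306 and 3.663 points. The 1.5-fold rule was tested on simulated data too. No doublet caller was run and no doublet was removed; cells with 2 or more markers of another lineage were left out in an alternative. Named genes were list genes and the 12 largest differences each way per comparison (6 each way within the members). Co-detection, the classes of division genes and the 5 promoters were chosen after values were seen. One gene of the lists is not reported here.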

Additional observations from a re-analysis of the deposited data

How the results depend on the processing

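Of values that passed the 1.5-fold level, 0 changed sign. Of 228 recomputed list medians 11 changed sign, all below that level, with 0.46 for co-stimulation against -0.06 at a minimum of 300 genes and -0.07 after pairing by detected genes the largest. Among counts and shares 47 stayed close and 9 moved; among list medians 208 stayed, 13 moved, 6 gained and 1 lost the 1.5-fold level; among named genes 816 stayed. The share of CD8 cells that were Tcf7-negative and dividing was 72.0% with a minimum of 300 genes and 46.5% when Mki67 and Top2a were both required. With a 2-fold rule the numbers of called genes were 234 against other CD8 cells, 319 against Tcf7-negative non-dividing cells, 97 against Tcf7-positive dividing cells and 45 against tacrolimus cells, where the 1.5-fold rule gave 391, 490, 199 and 96. Matching by detected genes gave 311 against Tcf7-negative non-dividing cells (192 higher and 119 lower, against 454 and 36), at medians of 311 and 287 genes. Against tacrolimus cells a minimum of 10% of cells gave 51 and a difference of 10 points 55, while depth matching gave 113. With a minimum of 300 genes the median log2 ratio of G2 and mitosis against other CD8 cells was 0.87. Among named genes 24 lost and 24 gained the call, Slfn1 against Tcf7-negative non-dividing cells (-0.50 when matched) among those lost. Thinning was added after seeing the data. No paired analysis was possible because each treatment has 1 library, and no library could be left out for the same reason. At these depths a gene in under 5% of both groups was not compared.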
